A study of Mus musculus with 12 samples.

Results

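The effect of adding MBQ-167 to paclitaxel was measured in mammary tumours as the difference between the combination group and the paclitaxel group, 3 libraries against 3, which are 6 of the 12 libraries of the study. The members were chosen by treatment label alone, and all 18252 genes that passed a filter on low counts, of 46078 in the table, entered the test. The tumours grew in wild-type BALB/c mice from 4T1, a mouse mammary carcinoma line that metastasises, of which 300000 cells with a firefly luciferase marker were placed in mammary fat pad 4. Every mouse of both groups received paclitaxel, 5 mg/kg 1 time a week, from day 14 after injection. The combination group also received MBQ-167, 100 mg/kg 5 times a week. Treatment lasted 2 weeks and tumours were taken on day 28. The other 6 libraries came from tumours given vehicle or MBQ-167 without paclitaxel on the same schedule, and are used here only to set the effect of MBQ-167 alone beside its effect on top of paclitaxel. The model is 1 cell line transplanted into immune-competent hosts, and a whole-tumour library mixes carcinoma cells with host stroma and leukocytes. The labels call the libraries biological replicates without saying that each is a separate mouse, so the p-values speak only of spread among these samples, which may be technical. Cells were injected on 2 occasions that the labels do not tie to libraries, so occasion cannot be told apart from group.

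MBQ-167 inhibits the small GTPases Rac and Cdc42. Bound to GTP, these proteins switch on the PAK kinases and, through the WAVE and WASP complexes, the Arp2/3 complex that nucleates branched actin, and so drive lamellipodia, filopodia and invasion. Paclitaxel binds beta-tubulin inside the microtubule, stabilises it and stalls cells in mitosis. Both drugs therefore act on the cytoskeleton, by way of proteins and not by way of transcription directly, and the comparison asks what the GTPase inhibitor changes in RNA once the microtubule drug is already present.

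Total counts per library were 17001562, 12310300 and 15785555 for paclitaxel 1 to 3 and 11540557, 15239296 and 16120018 for combination 1 to 3. Between 17.11% and 37.43% of counts in these 6 libraries lay on 3 neighbouring features of chromosome 17, the lincRNA genes Gm26917 and Gm42418 and the ribosomal RNA feature CT010467.1, and the groups overlapped in this share. The carcinoma keratins Krt8 (295 to 370 CPM) and Krt18 (383 to 535 CPM) and the epithelial adhesion gene Epcam (67.8 to 145 CPM) were well expressed in all 6 libraries. CPM is the count relative to the library size after TMM scaling, in the usual unit of that name. The luciferase transgene was not analysed here.

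No gene separated the combination libraries from the paclitaxel libraries at an adjusted p under 0.05. The edgeR quasi-likelihood test with Benjamini-Hochberg adjustment called 0 genes higher and 0 lower, 0% of the genes tested in each direction, and its lowest adjusted p was 1. At an unadjusted p under 0.05 there were 430 genes, 2.36% of those tested, of which 217 were higher (1.19%) and 213 lower (1.17%). DESeq2 on the same counts called 4 genes higher and 1 lower, and limma voom called 0 in either direction with 468 genes at an unadjusted p under 0.05. The p-values were fewest near 0: 430 genes fell in the lowest of 20 equal bins and 1084 in the highest. MBQ-167 alone against vehicle, in the other 6 libraries and in the same fit, had 2348 genes in the lowest bin (12.9%) and 680 in the highest.

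**Figure D1:**
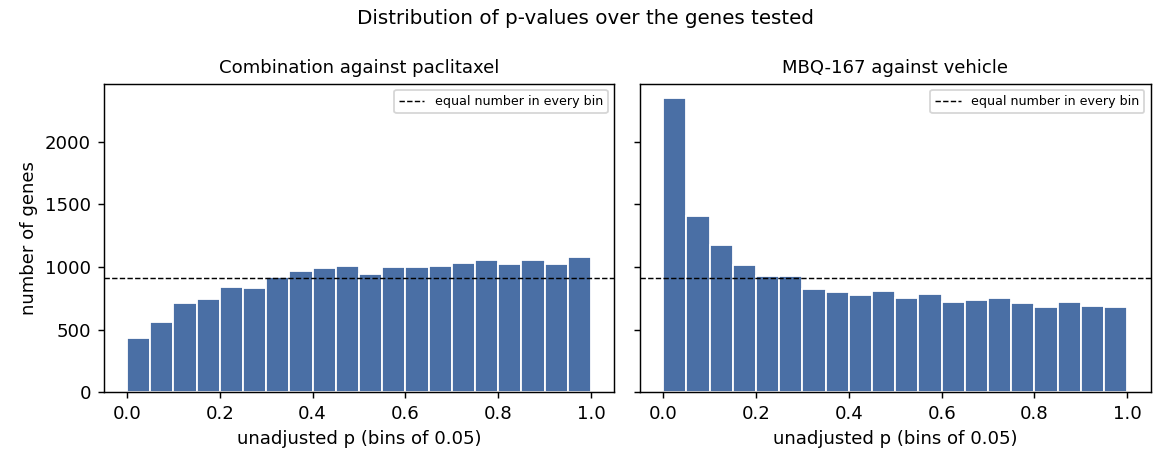
Number of genes (vertical axis) in each bin of 0.05 of the unadjusted p-value (horizontal axis), for combination against paclitaxel (left) and MBQ-167 against vehicle (right), with a dashed line at an equal number per bin. The lowest bin holds 430 genes on the left and 2348 on the right.

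The intervals, which are not adjusted for the number of genes, give the precision of each difference. Of the 15971 tested genes that averaged at least 1 CPM in the 6 libraries, 12502 (78.3%) had a 95% interval that lay within 2-fold either way, and 7986 within 1.5-fold. The median SE of a log2 fold change was 0.205 and the median interval reached 0.438 to either side, 1.36-fold. The median size of the difference, without its sign, was 0.126 on the log2 scale, against 0.2 for MBQ-167 alone. Groups that did not overlap in any library were found for 1328 genes (7.28%), 630 higher (3.45%) and 698 lower (3.82%) with the combination. The genes described below are therefore given as values with their spread, and none of them passed the test in this comparison.

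Among the genes with the smallest p-values and groups that did not overlap, those higher with the combination included a receptor, a transmembrane collagen, a clock gene and an AP-1 subunit. Tnfrsf19 (chromosome 14, 60963875 to 61046490, GRCm38), a receptor of the tumour necrosis factor family found on epithelial progenitors, measured 7.18, 7.03 and 8.16 CPM in paclitaxel libraries 1 to 3 and 14.7, 15.6 and 11.6 CPM in combination libraries 1 to 3, a log2 fold change of 0.90 ± 0.18 (SE, n = 3 per group). The 3 combination libraries all lay above the 3 paclitaxel libraries, and the vehicle libraries measured 12.6 ± 2.37 CPM (SD, n = 3). Col23a1 (chromosome 11, 51289920 to 51583918), a transmembrane collagen, measured 1.93, 1.501 and 1.96 CPM with paclitaxel and 5.11, 6.51 and 4.11 CPM with the combination (1.53 ± 0.31). Its groups were also apart, but the gene stood at few counts.

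Per2 (chromosome 1, 91415982 to 91459324), a repressor of the circadian feedback loop, measured 7.86, 6.87 and 8.41 CPM with paclitaxel and 12.9, 24.2 and 12.2 CPM with the combination (1.09 ± 0.23). Combination 2 was the high library, and the other 2 lay close together above the paclitaxel range. Cry1, the repressor that pairs with PER proteins, also had groups that did not overlap (0.39 ± 0.19). In the clock list, which includes both, 12 of 17 members were higher and 5 lower, with a median of 0.08, against 0.00 over all genes tested. Its mean log2 CPM ran from 3.58 to 3.73 with paclitaxel and from 3.77 to 3.92 with the combination, so the groups did not overlap. Fosb (chromosome 7, 19302696 to 19310051), an AP-1 subunit encoded by an immediate early gene, measured 3.18, 4.35 and 4.42 CPM with paclitaxel and 11.1, 20.8 and 5.59 CPM with the combination (1.66 ± 0.40). Again combination 2 was highest, and combination 3 came near the paclitaxel libraries. These 4 genes are the ones DESeq2 called higher, each at an adjusted p of 0.0378. Across all alternatives the log2 fold change ran from 0.81 to 1.01 for Tnfrsf19, from 1.34 to 1.68 for Col23a1, from 0.70 to 1.27 for Per2 and from 1.05 to 2.02 for Fosb.

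On the higher side 10 genes were taken, those with the smallest p-values among genes of at least 1 CPM whose groups did not overlap, and the other 6 of them had smaller differences. Atp5l, a subunit of the mitochondrial ATP synthase, measured 12.8 to 13.2 CPM with paclitaxel and 18.7 to 19.2 CPM with the combination (0.55 ± 0.14), the tightest pair of groups among the 10. Rhou (chromosome 8, 123653929 to 123663884), an atypical small GTPase related to Cdc42, measured 71.2, 58.2 and 61.2 CPM against 96.8, 99.1 and 76.7 CPM (0.51 ± 0.15). Selenoh, a nuclear selenoprotein (0.54 ± 0.17), Lmbr1, whose intron holds a limb enhancer of Shh (0.49 ± 0.15), and Tmem198b (0.51 ± 0.14) were higher in all 3 combination libraries. Rpl9-ps4, a processed pseudogene of a ribosomal protein gene (0.85 ± 0.23), can take reads from its parent gene and is uncertain.

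**Figure D2:**
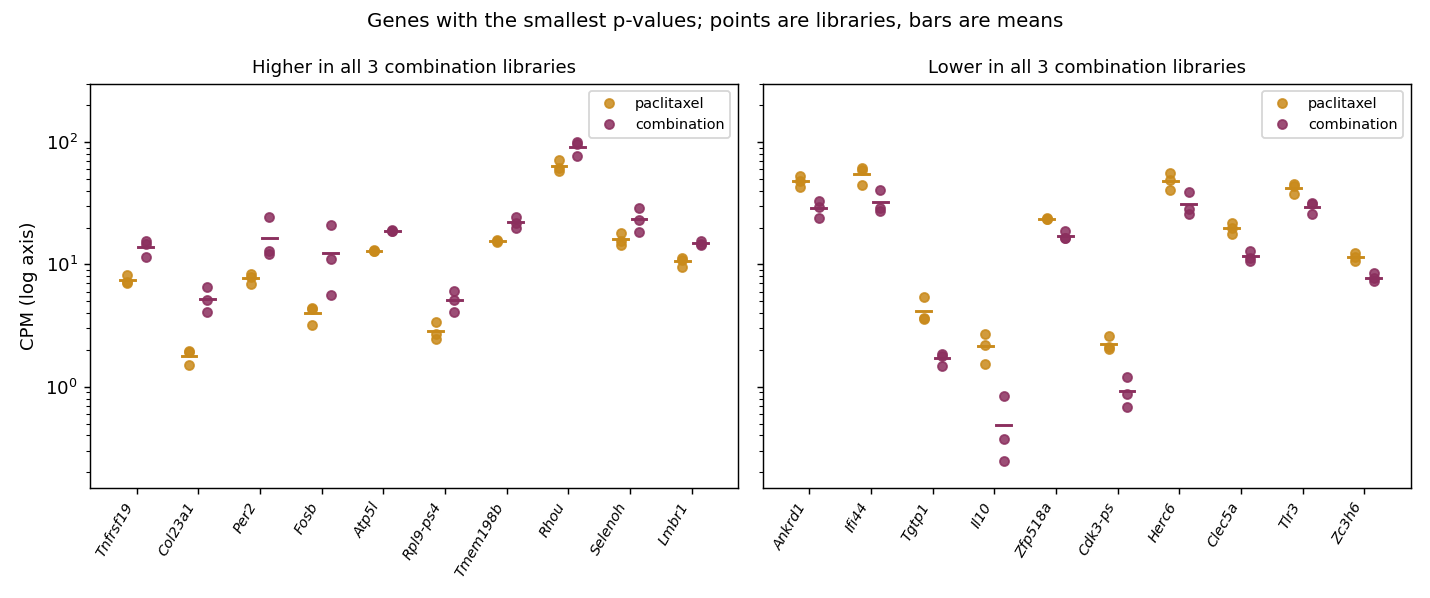
CPM on a log axis for the 10 genes with the smallest p-values in each direction, among genes of at least 1 CPM whose groups did not overlap, with 1 point per library and a bar at the mean of 3. Combination points lie above paclitaxel points on the left and below them on the right, as the choice of genes requires, and Il10 and Fosb show the widest spread within a group.

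Of the 10 genes taken by the same rule on the lower side, Ankrd1 had the smallest p-value. Ankrd1 (chromosome 19, 36111961 to 36120099), an ankyrin repeat protein and a standard target of the mechanosensitive coactivator YAP, measured 48.2, 42.7 and 52.8 CPM with paclitaxel and 23.9, 29.4 and 33.0 CPM with the combination (-0.73 ± 0.16). All 3 combination libraries were below all 3 paclitaxel libraries, and the vehicle libraries measured 27.6 ± 6.05 CPM (SD, n = 3). The list of SRF and YAP targets did not follow Ankrd1: 9 of 16 members were higher and 7 lower with a median of 0.09, and Ajuba, a LIM protein that feeds into the same pathway, was higher in all 3 combination libraries (0.35 ± 0.14). Il10 (chromosome 1, 131019845 to 131024974), the anti-inflammatory cytokine, measured 1.54, 2.69 and 2.21 CPM against 0.372, 0.248 and 0.843 CPM (-2.07 ± 0.54). Its groups were apart, at a low level.

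Clec5a, a myeloid lectin receptor (-0.77 ± 0.22), Zfp518a, a zinc finger protein (-0.46 ± 0.12), Zc3h6, a CCCH zinc finger protein (-0.56 ± 0.16), and Cdk3-ps, annotated as a polymorphic pseudogene (-1.31 ± 0.36), were lower in all 3 combination libraries. The remaining 4 of the 10 were Ifi44, Tgtp1, Herc6 and Tlr3, which belong to the interferon and viral RNA sensing systems. Gm17334, a predicted gene that the rule for named genes leaves out and that is named here after its values were seen, was the gene DESeq2 called lower (-0.94 ± 0.20; DESeq2 adjusted p = 0.0378).

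Interferons bind cell surface receptors, and JAK kinases then activate STAT proteins, which enter the nucleus and switch on antiviral and antigen-presenting genes. Type I interferon works mainly through the interferon-stimulated response element (ISRE), while interferon gamma induces GTPases of the GBP and IRG families, the chemokines Cxcl9, Cxcl10 and Cxcl11, and Ido1. In tumours such genes are widely used as a readout of inflammation and of T cell and NK cell activity. The promoters of 4 of the lower genes are shown because each holds the ISRE core searched for here, GAAA, any 2 bases and GAAA again, on either strand. Each run is the RefSeq window of GRCm38.p6 from 250 bases before the gene's start to 50 after it, with the start as RefSeq gives it, written 5′ to 3′ on the gene's minus strand, with the match in capitals.
Tgtp1, chr11:48992197-48992496: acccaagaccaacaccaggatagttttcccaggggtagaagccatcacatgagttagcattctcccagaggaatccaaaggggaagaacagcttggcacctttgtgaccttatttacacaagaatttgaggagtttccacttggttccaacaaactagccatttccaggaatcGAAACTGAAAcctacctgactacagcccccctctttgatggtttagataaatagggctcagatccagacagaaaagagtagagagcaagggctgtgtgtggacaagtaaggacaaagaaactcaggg
Tgtp2, chr11:49064163-49064462: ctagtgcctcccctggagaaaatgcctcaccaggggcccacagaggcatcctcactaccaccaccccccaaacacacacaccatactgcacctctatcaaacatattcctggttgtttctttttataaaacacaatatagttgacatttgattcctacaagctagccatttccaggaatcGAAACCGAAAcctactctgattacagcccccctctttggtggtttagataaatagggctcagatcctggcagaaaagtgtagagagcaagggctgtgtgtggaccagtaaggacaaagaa
Ifih1, chr2:62646206-62646505: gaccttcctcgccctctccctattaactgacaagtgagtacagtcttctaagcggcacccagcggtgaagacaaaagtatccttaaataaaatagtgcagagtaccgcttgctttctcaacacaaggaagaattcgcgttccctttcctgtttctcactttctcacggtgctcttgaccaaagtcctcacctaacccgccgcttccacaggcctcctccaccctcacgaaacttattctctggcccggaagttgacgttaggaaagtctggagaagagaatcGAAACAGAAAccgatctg
Trim30a, chr7:104465144-104465443: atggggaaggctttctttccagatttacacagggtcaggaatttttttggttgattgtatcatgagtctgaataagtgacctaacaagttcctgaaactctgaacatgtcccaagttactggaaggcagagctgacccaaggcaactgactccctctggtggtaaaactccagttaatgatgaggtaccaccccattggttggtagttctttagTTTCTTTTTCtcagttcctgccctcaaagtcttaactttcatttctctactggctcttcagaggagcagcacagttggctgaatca
The match ran from base -77 to -68 relative to the start in Tgtp1, from -70 to -61 in Tgtp2, from 32 to 41 in Ifih1 and from -36 to -27 in Trim30a, where it lies on the other strand. The Tgtp1 window lies inside the gene as GENCODE vM21 annotates it, the source of the gene coordinates given here, whose start is further upstream.

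The same letters were found in a window of 1079 of the 27025 genes in the RefSeq table, 3.99%. They were present for 12 of the 20 interferon response genes with a window (60%) and for 10 of the 14 interferon gamma effectors with a window (71.4%). Of 19 immediate early genes 2 held them (10.5%), and of 23 mitosis and spindle genes 1 did (4.35%). The 2 interferon lists were chosen as interferon genes, so these shares describe the lists and not an effect of the combination. A match describes letters in a window and not a bound site. The windows of Ifi44, Herc6 and Tlr3 held none.

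Of 30 tested interferon response genes, 28 were lower with the combination and 2 were higher, with a median log2 fold change of -0.43. None passed over all genes, and 10 (33.3%) were lower at an unadjusted p under 0.05, where 1.17% of all genes were. Of the 23 interferon gamma effectors, 23 were lower and 0 higher, with a median of -0.42, and 8 (34.8%) were lower at that level. Over all genes tested, 50.1% were lower and the median was 0.00. Groups that did not overlap, with the combination lower, were found for 6 of the 30 and 5 of the 23 members, and for 3.82% of all genes tested. Members of a list share their regulation and are not independent, and the lists were written with earlier results of these data known.

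Ifi44 (chromosome 3, 151730922 to 151749960), an antiviral protein, measured 44.3, 59.2 and 60.9 CPM with paclitaxel and 40.3, 28.7 and 27.2 CPM with the combination (-0.78 ± 0.20). Combination 1 came close to the lowest paclitaxel library. Ifi44 measured 20.7 ± 5.27 CPM in vehicle libraries and 32.1 ± 3.69 CPM with MBQ-167 alone (SD, n = 3). Its combination mean was 32.1 CPM. Ifih1 (chromosome 2, 62595798 to 62646255), which encodes the cytosolic RNA sensor MDA5, measured 37.6, 39.7 and 46.5 CPM against 29.3, 30.7 and 28.1 CPM (-0.49 ± 0.15). Trim30a, an interferon-induced TRIM protein, measured 38.9, 46.2 and 39.1 CPM against 27.4, 30.6 and 30.3 CPM (-0.49 ± 0.16). The groups did not overlap for these 2 genes either. Tlr3, the endosomal receptor of double-stranded RNA (-0.52 ± 0.15), and Herc6, which attaches ISG15 to proteins in mice (-0.64 ± 0.18), were also lower in all 3 combination libraries. Vehicle and combination means were 19.4 and 29.5 CPM for Tlr3, 17.5 and 31.1 CPM for Herc6 and 26.1 and 29.4 CPM for Ifih1. For these genes and Ifi44 the combination mean lay below paclitaxel but above vehicle, though Ifih1 overlapped vehicle.

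Usp18, the protease that removes ISG15 (-0.65 ± 0.23), Rsad2, the antiviral enzyme viperin (-0.60 ± 0.21), and Rtp4 (-0.45 ± 0.18) did not overlap between groups either. For Oasl2 (-0.57 ± 0.19), Irf7 (-0.48 ± 0.17), the master regulator of type I interferon, and Zbp1 (-0.45 ± 0.16), a sensor of Z-form nucleic acid, combination 1 fell inside the paclitaxel range. The 2 members that were higher were Mx2 (0.12 ± 0.29) and Mx1 (0.08 ± 0.29), antiviral dynamin-like GTPases, which many inbred mouse strains carry in defective form.

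Tgtp1 (chromosome 11, 48985327 to 48994172) encodes an IRG GTPase that attacks pathogen vacuoles, and measured 3.57, 5.37 and 3.62 CPM with paclitaxel against 1.86, 1.80 and 1.48 CPM with the combination (-1.29 ± 0.33). Its neighbour and close paralog Tgtp2 (chromosome 11, 49057194 to 49064206) measured 10.3, 12.1 and 10.7 CPM against 5.58, 6.07 and 5.16 CPM (-0.97 ± 0.30). Both were apart in all libraries, but reads may be split between the 2 copies, so the share of each is uncertain. Vehicle and combination means were 0.925 and 1.71 CPM for Tgtp1 and 2.43 and 5.60 CPM for Tgtp2. Gbp7, a guanylate-binding protein (-0.59 ± 0.20), and the chemokines Cxcl10 (-0.85 ± 0.35) and Cxcl11 (-1.14 ± 0.39), which attract T cells through CXCR3, also did not overlap. Ido1, which breaks down tryptophan, measured 1.45, 4.82 and 2.03 CPM against 1.49, 1.05 and 0.843 CPM (-1.29 ± 0.49), and combination 1 lay within the paclitaxel range. Igtp (-0.68 ± 0.29) and Irgm2 (-0.55 ± 0.25), further IRG GTPases, overlapped as well.

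Upstream of these genes the receptors were at similar levels: Ifngr1 (0.06 ± 0.13), Ifngr2 (0.08 ± 0.14) and Ifnar1 (-0.01 ± 0.14) overlapped, and Ifnar2 was higher in all 3 combination libraries (0.22 ± 0.15). These 4 receptors were chosen after the values were seen. Ifng itself was too low to be tested.

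**Figure D3:**
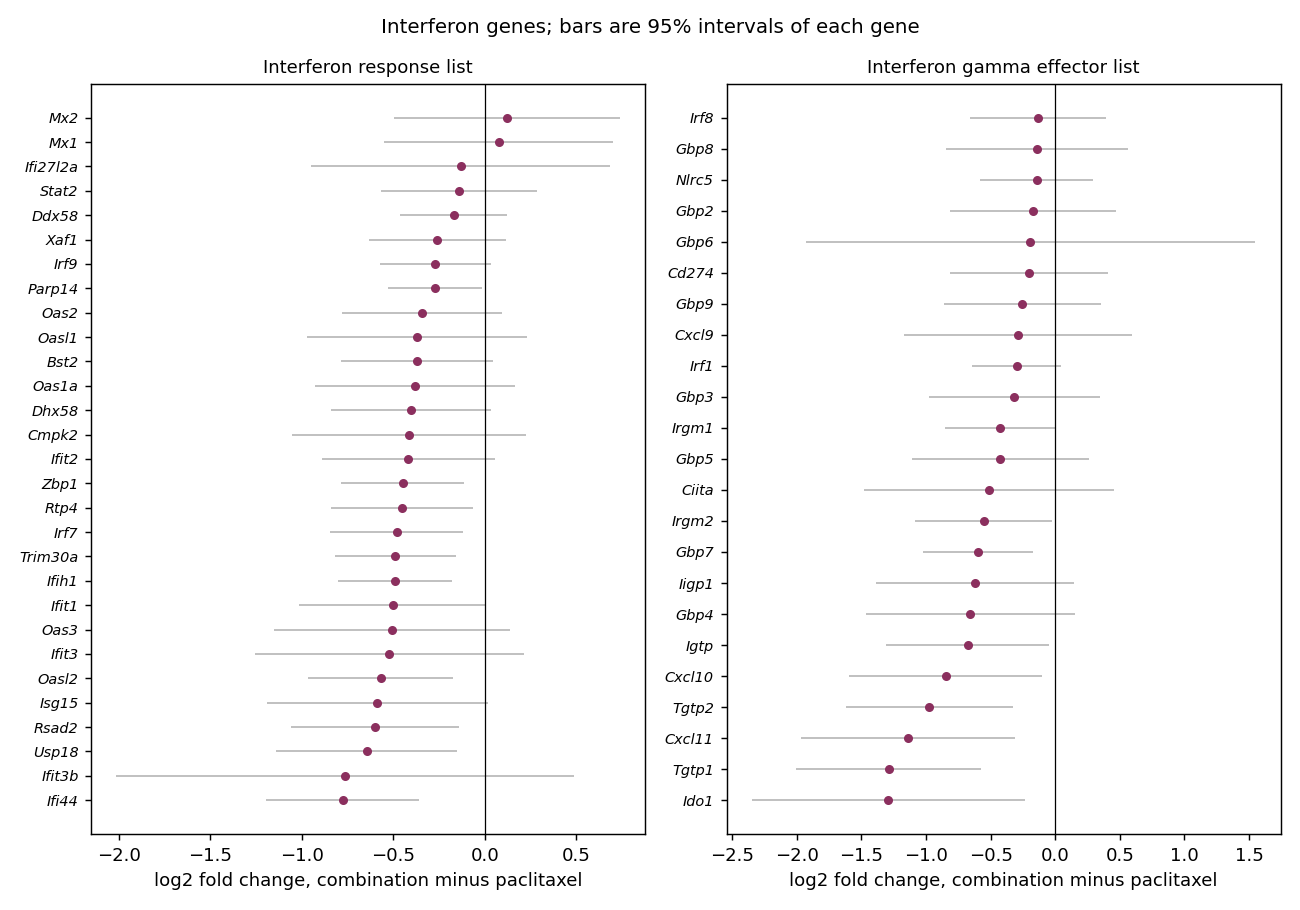
Log2 fold change, combination minus paclitaxel, of members of the interferon response list (29 of the 30 tested, left) and of each tested member of the interferon gamma effector list (23 genes, right), with 95% intervals from the edgeR fit as bars. Points lie left of 0 for 27 of the 29 genes and for all 23, and most intervals include 0.

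The groups overlapped when the lists were read library by library. The mean log2 CPM of the interferon response genes was 4.16, 4.63 and 4.52 in paclitaxel 1 to 3 and 4.30, 3.89 and 3.90 in combination 1 to 3, so combination 1 lay above paclitaxel 1. For the interferon gamma effectors it was 4.77, 5.36 and 4.83 against 4.94, 4.500 and 3.82. Paclitaxel 2 was the highest library and combination 3 the lowest. Without paclitaxel 2 the median of the effectors was -0.24, without combination 3 it was -0.26 and without combination 1 it was -0.76, while the median of the interferon response genes stayed between -0.57 and -0.35 whichever of the 6 libraries was left out.

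Leukocyte markers varied beside them. Of 13 tested NK cell and cytotoxic genes, 10 were lower and 3 higher with a median of -0.48, and 0 passed; Gzmb, which encodes granzyme B, measured 3.18, 3.32 and 5.71 CPM against 3.16, 1.18 and 2.11 CPM (-0.94 ± 0.54), and perforin (Prf1) overlapped (-0.77 ± 0.44). The marker level, as the mean log2 CPM of the 13 genes in each library, ran from 0.88 to 1.23 with paclitaxel and from 0.55 to 0.98 with the combination. The 23 T cell markers ran from 0.59 to 2.16 and from 1.10 to 1.63, with 12 members higher and 11 lower, and Foxp3, the regulator of regulatory T cells, was higher in all 3 combination libraries (0.53 ± 0.26). Their part in the interferon values was not tested. In a whole-tumour library fewer cells of a type and less RNA per cell cannot be told apart.

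When MBQ-167 was given without paclitaxel, most members of both interferon lists lay above 0. Against vehicle, 27 of the 30 interferon response genes were higher and 3 lower, with a median of 0.38, and 23 of the 23 interferon gamma effectors were higher, with a median of 1.04, in 6 libraries that the combination comparison does not use. The interaction, which is the MBQ-167 effect with paclitaxel minus its effect without, was lower at an unadjusted p under 0.05 for 16 of 30 and 18 of 23 members, against 4.85% of all genes. It passed over all genes for 1 of them, Zbp1, at -1.37 (edgeR adjusted p = 0.0453). Tgtp1 had an interaction of -2.75 (edgeR adjusted p = 0.0743) and Tgtp2 of -2.34 (edgeR adjusted p = 0.112).

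Across all 18252 genes the 2 effects of MBQ-167, with and without paclitaxel, had a Pearson correlation of -0.13 and a Spearman correlation of -0.139, and 43.2% of the genes with at least 1 CPM had the same sign. The points are genes from 1 fit and not independent, and no p is given. The 2 comparisons share no library. The interaction passed for 11 genes by edgeR (0.0603% of those tested), 8 higher (0.0438%) and 3 lower (0.0164%), and 1795 genes had an unadjusted p under 0.05, 4.98% of all on the higher side and 4.85% on the lower.

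Immediate early genes, whose transcription needs no new protein and which encode AP-1 and related factors, made up most of the higher ones. Fosb measured 53.7, 36.8 and 37.5 CPM in vehicle libraries 1 to 3 and 4.58, 6.79 and 3.04 CPM with MBQ-167 alone, a log2 fold change of -3.16 ± 0.40, where the combination differed from paclitaxel by 1.66. The interaction was 4.81 ± 0.56 (edgeR adjusted p = 0.00514). All 9 drug libraries lay below all 3 vehicle libraries, and the combination libraries were the highest drug libraries but for combination 3. Fos (chromosome 12, 85473890 to 85477273), the founding AP-1 subunit, measured 45.3, 61.8 and 64.1 CPM in vehicle, 10.3, 10.2 and 12.4 CPM with MBQ-167, 13.7, 7.51 and 9.94 CPM with paclitaxel and 17.9, 15.5 and 11.3 CPM with the combination. Its interaction was 2.88 ± 0.32 (edgeR adjusted p = 0.00514). Only the vehicle libraries stood far apart, and combination against paclitaxel overlapped (0.50 ± 0.22). Fos and Fosb passed the interaction in all 24 alternatives.

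Jund (chromosome 8, 70698949 to 70700616), a further AP-1 subunit, measured 115, 156 and 133 CPM with paclitaxel and 267, 223 and 150 CPM with the combination (0.66 ± 0.20), with combination 3 inside the paclitaxel range. Its interaction was 1.90, and that of Gm11175, which lies on the opposite strand of the same locus, was 1.73. The strandedness of the libraries is not given in the sources used here, so reads of these 2 genes cannot be told apart. Atf3, a stress-induced partner of AP-1, had an interaction of 2.17, Klf2, a factor of quiescent endothelium and lymphocytes, of 1.65, and Dusp1, the phosphatase that shuts off MAP kinases, of 1.49, while their differences between combination and paclitaxel were 0.14 ± 0.22, 0.29 ± 0.17 and 0.02 ± 0.16. Fkbp5, a chaperone induced by glucocorticoids, had an interaction of 1.36 with a difference of 0.31 ± 0.15.

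Members of the immediate early list went both ways between combination and paclitaxel. Of 23 members 12 were higher and 11 lower with a median of 0.02, against a median of -0.70 for MBQ-167 alone. At an unadjusted p under 0.05, 3 were higher (13%) and 2 lower (8.7%), where 1.19% and 1.17% of all genes were. Egr1 and Junb, named after their values were seen, had differences of -0.31 ± 0.20 and -0.17 ± 0.12, and Ppp1r15a, which directs a phosphatase to the translation factor eIF2α, was lower in all 3 combination libraries (-0.43 ± 0.18). Of 13 glucocorticoid-induced genes 9 were higher and 4 lower with a median of 0.12, against -0.97 for MBQ-167 alone. None passed in the combination comparison.

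On the lower side of the interaction were Ch25h, Tmem229b and Zbp1. Ch25h, the enzyme that makes 25-hydroxycholesterol and an interferon target itself, measured 1.51, 3.64 and 1.35 CPM in vehicle, 6.52, 9.32 and 8.52 CPM with MBQ-167, 6.12, 7.74 and 10.2 CPM with paclitaxel and 3.25, 3.22 and 4.43 CPM with the combination. The interaction was -3.04 (edgeR adjusted p = 0.035), and the combination libraries lay below both single-drug groups. Tmem229b, a transmembrane protein, measured 26.5, 26.9 and 26.3 CPM with paclitaxel and 22.3, 19.0 and 20.5 CPM with the combination (-0.37 ± 0.13), with an interaction of -1.19 (edgeR adjusted p = 0.0324).

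**Figure D4:**
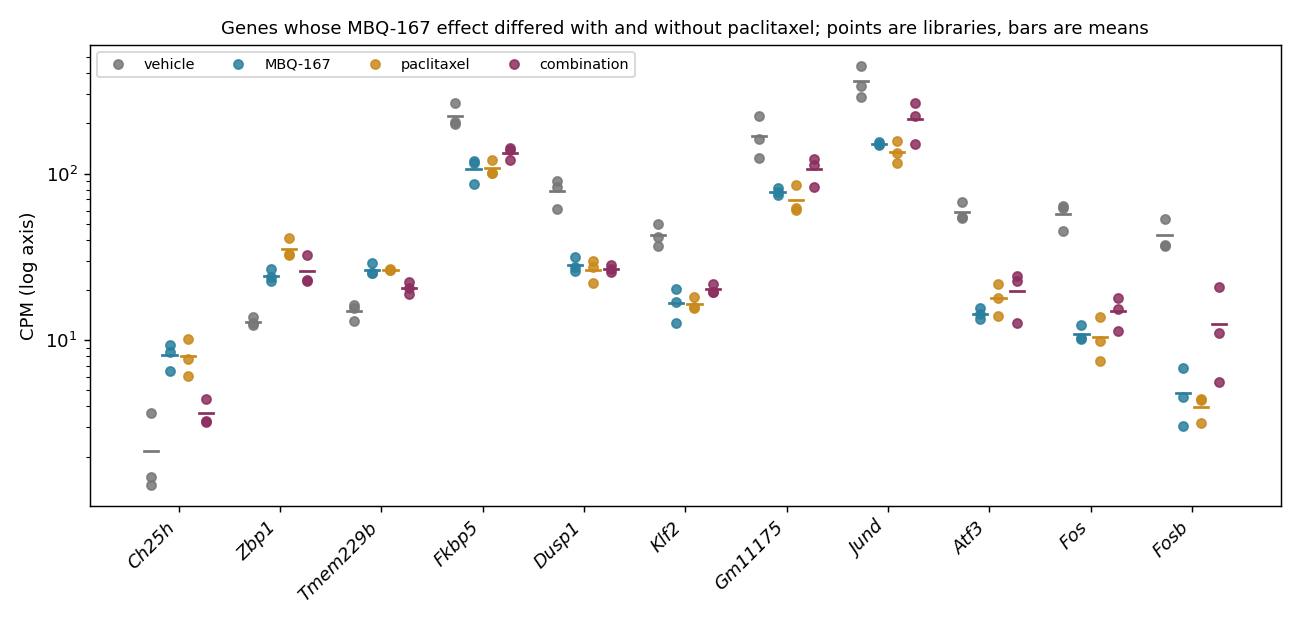
CPM on a log axis for the 11 genes that passed the interaction, with 1 point per library, a bar at the mean of 3 and a colour per group. Vehicle does not overlap the 3 drug groups in any gene except Ch25h, where vehicle and combination are near each other. For Gm11175 the gap is narrow, with vehicle 2 at 124.7 CPM and combination 1 at 121.6 CPM. The combination mean lies above both single-drug means for Fosb and, among others, for Fos, Jund and Fkbp5.

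The targets of the drug and their partners differed little between combination and paclitaxel. Rac1 measured 229, 260 and 245 CPM with paclitaxel and 248, 273 and 219 CPM with the combination (0.01 ± 0.12), and Cdc42 measured 255, 238 and 290 CPM against 250, 288 and 240 CPM (-0.01 ± 0.12). The 95% intervals, -0.24 to 0.26 and -0.28 to 0.26, bound the change in either transcript; activity of the GTPases was not measured. Of 28 GTPases, exchange factors and regulators 13 were higher and 15 lower with a median of -0.01. Tiam2, a Rac exchange factor, measured 58.8, 44.5 and 53.4 CPM against 71.5, 108 and 52.6 CPM (0.57 ± 0.20) with overlap, and Chn2, a Rac GTPase-activating protein, stood at -0.90 ± 0.52.

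Among the 24 effectors 14 were higher and 10 lower (median 0.02). Pak1, the kinase directly bound by both GTPases, measured 30.5, 30.5 and 32.8 CPM with paclitaxel and 20.7, 26.0 and 27.1 CPM with the combination (-0.34 ± 0.15), and Baiap2, the membrane-bending effector IRSp53, measured 73.7, 69.2 and 83.0 CPM against 93.6, 111 and 102 CPM (0.44 ± 0.15). Both pairs of groups were apart, in opposite directions. Of 19 actin, Arp2/3 and WASP family genes 17 were higher and 2 lower, with a median of 0.06 and 0 passed. Wasf1, the WAVE1 subunit that couples Rac to Arp2/3, had the largest difference of this list and measured 7.52, 7.51 and 9.33 CPM against 14.0, 20.5 and 9.43 CPM (0.85 ± 0.31), with combination 3 barely above paclitaxel 3. Arpc2, an Arp2/3 subunit, was 0.13 ± 0.12 higher without overlap. For MBQ-167 alone against vehicle, 17 of these 19 genes (median -0.17) and 20 of the 24 effectors (median -0.11) were lower. The interaction was higher at an unadjusted p under 0.05 for 6 of the 19 and 3 of the 24, against 4.98% of all genes. It passed over all genes for 0 members of either list.

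Genes of the paclitaxel response were also close between the groups. Of 14 tubulins 6 were higher and 8 lower with a median of -0.01. Tubb5, the main beta-tubulin, measured 763 to 837 CPM with paclitaxel and 843 to 881 CPM with the combination (0.08 ± 0.13), while Tubb2a (0.41 ± 0.16) was higher in all 3 libraries and Tubb4a (-1.02 ± 0.53) overlapped. The multidrug transporters that export paclitaxel, Abcb1a (-0.27 ± 0.52) and Abcb1b (-0.13 ± 0.22), overlapped, as did Abcc1 (-0.07 ± 0.10) and Abcc3 (-0.19 ± 0.20). Of 26 mitosis and spindle genes 9 were higher and 17 lower with a median of -0.06. Mki67, the proliferation marker, measured 240, 215 and 252 CPM against 178, 244 and 248 CPM (-0.07 ± 0.14), Plk1, a mitotic kinase, stood at -0.25 ± 0.16 and Kif18b, a spindle kinesin, at 0.27 ± 0.21. Of 27 replication genes 10 were higher and 17 lower (median -0.02), with E2f1 at -0.26 ± 0.17 and Pole at 0.22 ± 0.17. The p53 target Mdm2 (0.20 ± 0.11) and Sesn2 (0.32 ± 0.22) overlapped in a list with a median of 0.05.

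Glycolysis genes lay close to 0. Of 20 glycolysis genes 7 were higher and 13 lower, the median was -0.03 and the whole list lay between -0.18 and 0.13, against a median of -0.40 for MBQ-167 alone. Hk2, which phosphorylates glucose, measured 137, 117 and 130 CPM against 121, 120 and 108 CPM (-0.14 ± 0.13). Ldha (-0.01 ± 0.14), which makes lactate, and Pkm (0.00 ± 0.13), which makes pyruvate, overlapped, as did Gapdh (-0.18 ± 0.15) and Pgam1 (-0.16 ± 0.13). In the pentose phosphate pathway 2 of 7 were higher and 5 lower (median -0.02), with G6pdx at -0.06 ± 0.15, Rpia at -0.29 ± 0.17 and Taldo1 at 0.15 ± 0.16. Of 29 pyruvate dehydrogenase and citric acid cycle genes 14 were higher and 15 lower (median -0.01). Cs, citrate synthase, stood at 0.14 ± 0.11, Sdhc at 0.22 ± 0.14 and Dlat at 0.17 ± 0.12. Serine synthesis was represented by Phgdh (-0.01 ± 0.26) and Psph (0.29 ± 0.18), folate metabolism by Aldh1l2 (0.47 ± 0.31) and glutamine use by Glul (0.24 ± 0.20) and Asns (0.27 ± 0.24).

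Respiratory chain genes split by genome. Of 39 nuclear genes 27 were higher and 12 lower with a median of 0.05, whereas of 13 genes encoded by the mitochondrial DNA 0 were higher and 13 lower with a median of -0.28. mt-Nd2, a complex I subunit, measured 323, 278 and 296 CPM with paclitaxel and 130, 214 and 330 CPM with the combination (-0.41 ± 0.31). Combination 1 was lowest and combination 3 highest of the 6 libraries, so the groups overlapped, and without combination 1 the median of the list was -0.12. These transcripts are cut from common precursors and are not independent. mt-Nd3 was lower in all 3 combination libraries at a level near 1 CPM (-1.06 ± 0.59), and Cox6a1 (0.29 ± 0.19) and Cycs (-0.54 ± 0.33) stood at opposite signs among the nuclear genes.

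Other pathways stayed near 0. The median was 0.03 for fatty acid oxidation (Hadha 0.18 ± 0.11, Cpt2 -0.22 ± 0.15), -0.05 for cholesterol and fatty acid synthesis (Acaca -0.18 ± 0.10, Lss 0.23 ± 0.16) and -0.10 for hypoxia targets (Bnip3 -0.24 ± 0.14, Bnip3l -0.18 ± 0.12). It was 0.08 for the unfolded protein and integrated stress response, where Ddit3 stood at 0.34 ± 0.17, 0.05 for heat shock genes (Hspa1b 0.56 ± 0.33, Hsph1 -0.23 ± 0.15) and -0.06 for antioxidant targets of NRF2 (Gclm -0.12 ± 0.13, Hmox1 0.22 ± 0.25). Cytosolic ribosomal protein genes had a median of 0.03, although Rpsa measured 74.2, 85.5 and 96.9 CPM against 46.0, 64.0 and 58.2 CPM (-0.61 ± 0.22), and Rps6 overlapped (-1.40 ± 0.68). Both have processed copies in the genome and are uncertain. For mitochondrial ribosomal proteins the median was 0.02 (Mrps2 0.31 ± 0.16, Mrpl37 0.30 ± 0.16).

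Inflammatory mediators of myeloid cells were lower in more members than they were higher, 18 against 10 of 28 tested chemokines and cytokines (median -0.23, 0 passed). Il1b (chromosome 2, 129364570 to 129371139), the inflammasome cytokine, measured 75.4, 40.1 and 51.6 CPM with paclitaxel and 30.5, 33.9 and 34.7 CPM with the combination (-0.76 ± 0.22). The groups were apart, with combination 3 and paclitaxel 2 nearest. Ptgs2, which makes prostaglandins, overlapped (-0.50 ± 0.20), and Clec4e, the myeloid lectin Mincle, did not (-0.51 ± 0.23). The 23 neutrophil markers split into 9 higher and 14 lower (median -0.10), against -1.34 for MBQ-167 alone, and the 24 macrophage markers into 14 higher and 10 lower (median 0.08), with Spp1, osteopontin, at -0.33 ± 0.16 and Cd163 at 0.59 ± 0.46. Of 16 genes of class I antigen presentation 13 were lower and 3 higher with a median of -0.07 (B2m -0.33 ± 0.17, Erap1 -0.23 ± 0.14), and 0 passed. The median was 0.02 without paclitaxel 2 and 0.14 without combination 3, and for MBQ-167 alone 15 of the 16 were higher. Of 17 genes in a list of class II antigen presentation and dendritic cell markers 9 were higher and 8 lower, with a median of 0.01. The dendritic cell marker Flt3 stood at 0.97 ± 0.59 and the class II gene H2-DMb1 at -0.49 ± 0.40.

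B cell markers separated libraries, not groups. Their mean log2 CPM was -1.24, 3.10 and -1.35 in paclitaxel 1 to 3 and -1.42, 0.49 and 2.43 in combination 1 to 3. Cr2, complement receptor 2 of B cells, measured 1.30, 28.5 and 1.78 CPM with paclitaxel and 1.12, 2.60 and 14.1 CPM with the combination, and Fcer2a followed it. Glycam1, a product of lymph node venules and of milk-producing epithelium, was also highest in paclitaxel 2 (2.92 CPM) and combination 3 (8.80 CPM). Trbc2, a T cell receptor constant gene, was highest in paclitaxel 2 at 6.32 CPM, and Adipoq, the adipocyte hormone, at 11.5 CPM. Paclitaxel 2 and combination 3 are also the libraries without which the interferon gamma effector median came closest to 0. In the effectors they stood at opposite ends, with a mean log2 CPM of 5.36 in paclitaxel 2 and 3.82 in combination 3. With the B cell marker level as a covariate, an alternative added after the values were seen, the effector median was -0.42 and the interferon response median -0.43, and 0 genes passed. Because the marker level separated libraries and not groups, adjusting for it could move a difference between groups only little. The part of lymphoid cells in the interferon values was not tested.

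Structural cell types gave differences that depended on single libraries. Of 25 fibroblast and collagen genes 23 were higher with the combination and 2 lower, with a median of 0.21 and 0 passed. Col1a1 measured 2039, 3231 and 2126 CPM with paclitaxel and 3758, 2408 and 3991 CPM with the combination (0.46 ± 0.28), so the groups overlapped, as for Col6a1 (0.29 ± 0.18), and without combination 3 the median was -0.11. Of 20 epithelial markers 18 were higher and 2 lower (median 0.17; -0.06 without combination 3). The basal keratins Krt17 (1.59, 1.74 and 3.07 CPM against 8.55, 1.80 and 5.27 CPM; 1.27 ± 0.58) and Krt5 (1.93 ± 1.03) were high in combination 1. The skin genes Krt77 (2.00 ± 1.08) and Lor (2.36 ± 1.23) were highest there too, in a list of 7 tested skin markers with 7 higher and 0 lower and a median of 1.05. Their part in the keratin values was not tested.

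Matrix protease genes were mixed, with 10 of 18 higher and 8 lower, while most vessel, integrin and laminin genes were higher. Mmp12, the macrophage elastase, measured 157, 106 and 150 CPM against 69.5, 109 and 79.6 CPM (-0.68 ± 0.24), and Mmp19 stood at 0.53 ± 0.21. Of 21 integrin and laminin genes 15 were higher and 6 lower with a median of 0.08 and 0 passed. Lamc1, a laminin chain, was higher in all 3 combination libraries (0.25 ± 0.10), and Lama4 overlapped (0.22 ± 0.19). Of 22 markers in a vessel list of endothelial and pericyte genes 17 were higher and 5 lower with a median of 0.11 and 0 passed. The tip cell peptide Apln stood at 0.29 ± 0.17 and Plvap at 0.19 ± 0.13. With 1 of the 6 libraries left out, the median of the vessel list ran from -0.02 to 0.23. Factors of epithelial-mesenchymal transition had a median of 0.04 (Tgfb2 0.65 ± 0.35, Twist2 0.45 ± 0.27). Of 9 mast cell, basophil and eosinophil markers 3 were higher and 6 lower (median -0.06, Kit -0.28 ± 0.24, Cma1 0.58 ± 0.70). Of 9 red cell and platelet markers 2 were higher and 7 lower (median -0.18, Hba-a2 -1.22 ± 0.86, Ppbp -0.82 ± 0.69). Of 14 fat markers 6 were higher and 8 lower (median -0.16, Pnpla2 0.12 ± 0.13, Adipoq -0.73 ± 0.96). Of 3 mammary secretory markers 1 was higher and 2 lower (median -0.10, Prlr -0.66 ± 0.64, Glycam1 1.77 ± 1.44). All markers of these lists overlapped between groups.

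Of 16 skeletal muscle genes 12 were higher with the combination and 4 lower, with a median of 0.50 and 0 passed. Groups did not overlap for 3 higher members and 1 lower, where 3.45% of all genes tested were apart on the higher side and 3.82% on the lower. The mean log2 CPM of the list ran from 0.27 to 1.57 with paclitaxel and from 1.05 to 1.47 with the combination, so the groups overlapped. Des, the muscle intermediate filament desmin, was higher in all 3 combination libraries (0.79 ± 0.59), and Tnnc2, a troponin, was lower in all 3 (-2.73 ± 1.43) at a mean of only 0.19 CPM. Of 6 nerve and Schwann cell genes 6 were higher and 0 lower, with a median of 0.31 and 0 passed. Their mean log2 CPM ran from 2.01 to 2.14 with paclitaxel and from 2.22 to 2.83 with the combination, although each member overlapped. Sox10, a Schwann cell factor (2.89 ± 1.10), was highest in combination 3, at 1.05 CPM, and Mbp, a myelin protein, at 0.25 ± 0.21.

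**Figure D5:**
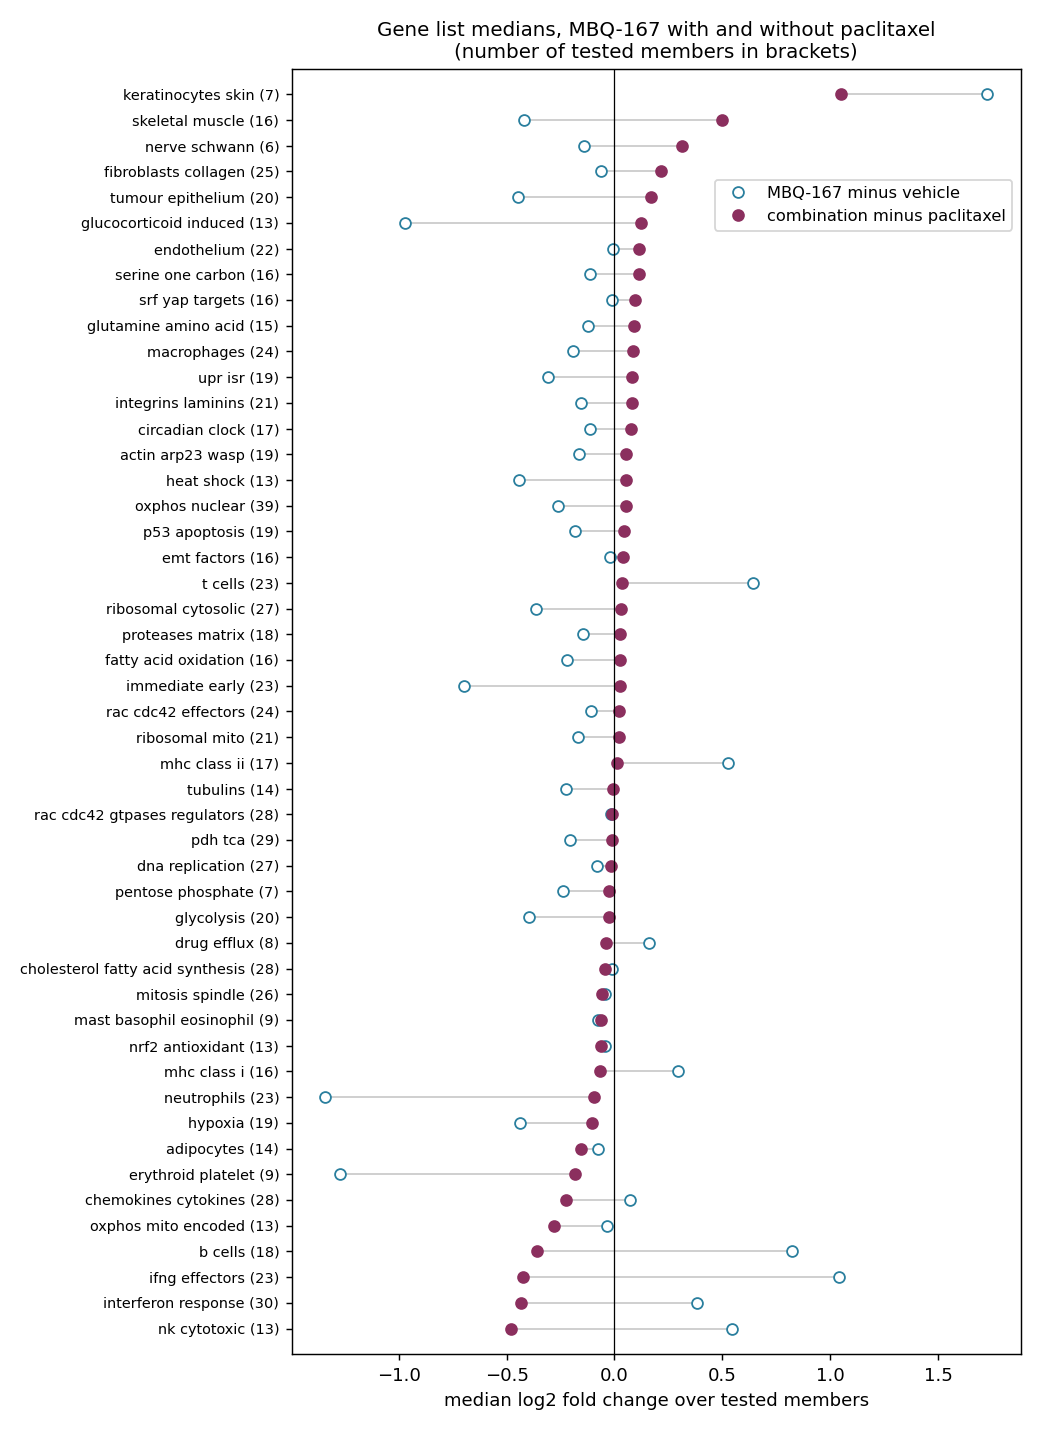
Median log2 fold change (horizontal axis) over the tested members of each gene list (vertical axis, number of members in brackets), for combination minus paclitaxel (filled) and MBQ-167 minus vehicle (open), joined by a line; the list with 3 tested members is left out. The filled points furthest from 0 are those of skin (1.05), skeletal muscle (0.50), NK cell and cytotoxic genes (-0.48) and the 2 interferon lists (-0.43 and -0.42), whose open points stand at 0.38 and 1.04.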

How the data were processed

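RNA of tumours was sequenced as 12 polyA libraries, 3 per group. The authors deposited whole-number counts per gene and library. HISAT2, HTSeq, DESeq2 and GRCm38 are named in the submitters' processing notes, with versions, annotation and strandedness not given in the sources used here. Total counts ran from 11540557 to 17001562 per library, and libraries of a group differed from each other by more than sampling noise. Symbols came from GENCODE vM21 and the gene name table (45229 of 46078 identifiers matched), and promoter windows from RefSeq (GRCm38.p6).

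Genes kept by filterByExpr (minimum count 10) were fitted with edgeR 4.0.16 in R 4.3.3, TMM scaling and quasi-likelihood F tests on all 12 libraries, so that the 4 groups share 8 residual degrees of freedom (biological coefficient of variation 0.214). The Benjamini-Hochberg adjustment ran over all 18252 genes of a comparison, with a threshold of 0.05, and SE is the standard error of the log2 fold change. The interaction is combination minus paclitaxel minus MBQ-167 plus vehicle. The fit was tested on simulated data before use. Lists are described by counts and medians, with no set test, and 1 member of the interferon response list is counted but not reported here.

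The rule for named genes took the 10 smallest p-values per direction among genes with at least 1 CPM, groups that do not overlap and a symbol that is not a predicted name, the 2 members with the smallest p of each of 50 lists, and 14 drug target, proliferation and metabolism genes. No gene met its first part, a pass at the threshold. Members of the interferon lists beyond the first 2, the genes of the interaction and those said to be so were named after their values were seen. The members and lists were chosen with earlier results of these data known.

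Alternatives were DESeq2 1.42.0, voom of limma 3.58.1, RLE and TMMwsp scaling, no filter or 1 CPM in 3 libraries, a fit of the 6 libraries only, the replicate number as a block, removal of the 3 abundant features, protein-coding genes only, a GC correction (spline with 5 degrees of freedom, 18144 genes), neutrophil markers as a covariate and leaving out each library. The B cell covariate and leaving out vehicle and MBQ-167 libraries were added after the values were seen.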

Additional observations from a re-analysis of the deposited data

Results flagged for a closer look

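For 11 genes the effect of MBQ-167 differed between libraries with and without paclitaxel, by the edgeR test of the interaction itself with Benjamini-Hochberg adjustment. The difference of the 2 log2 fold changes was 4.81 for Fosb and 2.88 for Fos (adjusted p = 0.00514 each), 2.17 for Atf3, 1.90 for Jund, 1.65 for Klf2 and 1.49 for Dusp1 (adjusted p = 0.0286 each). It was 1.36 for Fkbp5 (adjusted p = 0.035) and 1.73 for Gm11175 (adjusted p = 0.0445), which shares its locus with Jund. On the lower side it was -3.04 for Ch25h (adjusted p = 0.035), -1.19 for Tmem229b (adjusted p = 0.0324) and -1.37 for Zbp1 (adjusted p = 0.0453).

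Of these genes, none passed in combination against paclitaxel with edgeR, and Fosb did with DESeq2. Fos and Fosb passed the interaction in all 24 alternatives. The others failed in 6 (Klf2) to 14 (Zbp1) of them, most often when 1 library was left out, and none changed sign. The cause of the difference was not tested.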

How the results depend on the processing

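The counts of 0 genes higher and 0 lower held in each alternative other than DESeq2, which called 4 higher and 1 lower, and the fit without a filter, which called 7 higher and 0 lower. The 7 were Fosb, Per2, Megf6 and 4 small noncoding RNA genes, Gm24187, Gm26444, Gm25679 and Rn7s1, of which Gm26444 and Gm25679 had counts in 4 and 3 of the 6 libraries. Leaving out any 1 of the 12 libraries gave 0 and 0, with 395 to 746 genes at an unadjusted p under 0.05.

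The interaction count was less stable. From 8 higher and 3 lower it went to 74 and 73 with DESeq2, 118 and 79 without a filter, 5 and 1 with the neutrophil covariate and 7 and 1 with the B cell covariate. With 1 of the 12 libraries left out it ran from 2 to 11 higher and from 0 to 8 lower. The lower count was 8 without combination 1, 5 without vehicle 2, 2 without vehicle 3, 1 without combination 3 and 0 without any 1 of the other 8. The cause was not tested.

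Replicate numbers did not pair the libraries: the deviations of same-numbered paclitaxel and combination libraries correlated at -0.01, -0.09 and -0.18, and paclitaxel 2 went best with combination 3 (0.23). With the number as a replicate block, 0 genes passed (463 at an unadjusted p under 0.05), the interaction gave 7 higher and 6 lower, and the median of the integrin and laminin list was 0.0035, from 0.08.

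List medians moved by more than their spread in 8 cases with a library left out. Their ranges over the 6 libraries were -1.63 to 3.61 for B cells, 0.65 to 3.01 for skin, -0.56 to 0.53 for red cells and platelets, -0.0905 to 0.0676 for immediate early genes, -0.064 to 0.0566 for the citric acid cycle, -0.18 to 0.21 for SRF and YAP targets, -0.0261 to 0.1235 for p53 targets and -0.026 to 0.118 for integrins and laminins.

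Signs turned for genes near 0 or high in 1 library. With voom the log2 fold change was 0.31 for Cr2, 0.55 for Adipoq, -0.0022 for Pkm and 0.0024 for Phgdh. For Pkm it was also -0.0046 without a filter, -0.00031 with the stricter filter, -0.0052 with the replicate block, -0.045 with the GC correction and -0.0082 with the neutrophil covariate. The GC correction gave 0.034 for Cdc42 and -0.011 for Dusp1, and the B cell covariate 0.0011 for Ldha and 0.016 for Ifnar1. With 1 of the 6 libraries left out, genes whose sign turned ranged as follows. Drug targets and early response genes went from -0.0649 to 0.0861 for Rac1, -0.0896 to 0.0716 for Cdc42, -0.0912 to 0.119 for Dusp1 and -0.0364 to 0.38 for Atf3. Metabolic and growth genes went from -0.0714 to 0.051 for Pkm, -0.106 to 0.111 for Ldha, -0.1905 to 0.0126 for G6pdx, -0.1325 to 0.0759 for Phgdh, -0.16 to 0.0635 for Mki67 and -0.0828 to 0.433 for Hmox1. Interferon genes went from -0.101 to 0.241 for Mx1, -0.1105 to 0.248 for Mx2, -0.0646 to 0.204 for Ifngr1 and -0.132 to 0.0835 for Ifnar1. Cell type markers went from -2.27 to 0.495 for Trbc2, -3.21 to 0.769 for Fcer2a, -2.44 to 1.98 for Cr2, -1.336 to 1.335 for Adipoq, -0.882 to 4.59 for Glycam1, -0.456 to 0.0908 for Kit and -1.74 to 0.3325 for Hba-a2.

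At 3 libraries per group the median 95% interval of a gene, not adjusted for the number of genes, reached 1.36-fold to either side. It is not a detection limit: differences as large as -2.07 on the log2 scale (Il10) did not pass. Whether libraries are separate mice, and which injection occasion each belongs to, is not given in the sources used here.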
